A study of Mus musculus with 3 samples.

Results

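Maf, Spi1, Irf8, Cebpa, Cebpb, Mef2c, Runx1, Klf4 and Nr4a1 encode transcription factors that are used to define macrophages, and their levels, detection and joint detection were followed in sciatic nerve macrophages before and after crush. The 9 genes were chosen by name from the 27998 genes of each count table, and all 9 were measured in every library. The cells were macrophages of C57BL/6 mice, an inbred strain, profiled one by one with 10x Genomics chemistry version 1. There were 3 libraries: uninjured nerve (steady state), nerve at day 1 and nerve at day 5 after crush, an injury that cuts axons while the nerve's sheath stays whole. Each time was 1 library, so there were no replicates, no test was possible, and every interval below is at 95% and covers counting error only. No source used here gives the number of animals per library, the cell sort, or the animals' sex and age.

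As background, PU.1 (the product of Spi1), C/EBP alpha and RUNX1 open the enhancers that make a myeloid cell, and IRF8 binds many of them together with PU.1. c-MAF and MEF2C take part in the programs of macrophages resident in tissue, MEF2C best known from microglia. C/EBP beta, KLF4 and NUR77 (the product of Nr4a1) respond quickly to signals, and all 3 are known from monocytes, where C/EBP beta and NUR77 support the non-classical, Ly6C-low type.

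After filtering, 728 steady-state, 2793 day 1 and 2059 day 5 cells remained, with 1656510, 7963091 and 5524496 UMIs (unique molecular identifiers, barcodes by which every captured RNA molecule is counted a single time). Cells held a median of 2238.5, 2555 and 2473 UMIs, and 16 barcodes occurred in a pair of libraries, none of them with an identical profile. All 10 macrophage markers had UMIs in every library, and they summed to 49084, 29462 and 43043 CPM (a gene's UMIs scaled to 1000000 UMIs of the library). In the same order, 12 epineurial macrophage markers (outer sheath of the nerve) summed to 15550, 755 and 2874 CPM and 10 monocyte markers to 1177, 4847 and 2186 CPM. Markers of other cells were low. They summed to 409, 162 and 198 CPM for 10 dendritic cell genes, 117, 68.8 and 13.4 CPM for 8 neutrophil genes, and 48.3, 9.54 and 28.6 CPM for 7 lymphocyte genes. The 7 fibroblast genes summed to 116, 235 and 150 CPM, the 7 Schwann cell genes to 319, 56.3 and 64.6 CPM, and the 7 endothelial genes to 33.8, 20.97 and 11.4 CPM. Ly6g, Camp, Ngp, Cd3e, Nkg7, Ms4a1, Sox10, Emcn and Mcpt4 were at 0 in all 3 libraries. The part of these cells in the results below was not tested. The exception is dendritic cells, in the ratios between libraries and the counts of 2-fold genes only.

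The promoters of 3 of the signal-responsive factors are shown first because they share a short element. RefSeq windows, cut to the 250 bases before the transcription start (GRCm38.p6), matched 7 of the 9 genes (not Maf or Spi1). The capitals mark TGACGC on either strand (read as GCGTCA when it lies on the other strand), which contains TGACG, the core of the cAMP response element. The motif was chosen after the windows had been read, so its count is a description. Nr4a1 (chr15:101266596-101266845, + strand) held 4 copies, at 234, 214, 70 and 41 bases before the start. Cebpb (chr2:167688665-167688914, + strand) held 3 copies, at 181, 53 and 7 bases. Klf4 (chr4:55532476-55532725, - strand) held 1, at 233 bases. Cebpa (chr7:35119043-35119292, + strand) held 0 and is printed beside its paralog Cebpb.
Nr4a1: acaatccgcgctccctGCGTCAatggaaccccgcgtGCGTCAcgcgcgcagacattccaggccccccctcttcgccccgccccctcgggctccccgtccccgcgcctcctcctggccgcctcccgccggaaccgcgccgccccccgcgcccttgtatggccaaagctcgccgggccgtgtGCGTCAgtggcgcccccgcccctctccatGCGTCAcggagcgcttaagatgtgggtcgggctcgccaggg
Cebpb: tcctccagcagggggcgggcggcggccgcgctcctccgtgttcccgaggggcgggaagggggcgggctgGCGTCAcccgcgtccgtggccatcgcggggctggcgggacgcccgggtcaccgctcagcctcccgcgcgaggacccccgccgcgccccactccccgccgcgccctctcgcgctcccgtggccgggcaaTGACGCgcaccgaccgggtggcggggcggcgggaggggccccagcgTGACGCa
Klf4: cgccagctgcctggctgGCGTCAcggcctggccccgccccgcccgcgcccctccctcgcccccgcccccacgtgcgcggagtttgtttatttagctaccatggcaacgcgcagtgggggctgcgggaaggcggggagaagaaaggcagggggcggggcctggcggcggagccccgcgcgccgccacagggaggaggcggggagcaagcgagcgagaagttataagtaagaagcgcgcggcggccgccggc
Cebpa: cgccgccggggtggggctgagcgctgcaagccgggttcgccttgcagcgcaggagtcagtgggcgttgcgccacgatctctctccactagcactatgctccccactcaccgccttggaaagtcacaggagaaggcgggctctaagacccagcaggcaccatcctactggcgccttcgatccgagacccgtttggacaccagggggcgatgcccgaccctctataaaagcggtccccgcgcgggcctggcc

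Of 32851 mouse promoter windows of the same length, 6.12% held at least 1 TGACGC, 0.460% at least 2 and 15 windows (0.0457%) at least 3. The Nr4a1 window was the single window with 4. The Nr4a1, Cebpb and Klf4 windows were 74.4%, 81.6% and 74% G or C, against a mean of 53.2% over all windows. A motif that contains CG is likelier in such windows, and windows of like content were not compared. The windows of Irf8, Mef2c and Runx1 held 0 as well. The full cAMP response element, TGACGTCA, was in 1.55% of all windows and in none of the windows of these genes. TATAAA, the sequence of the TATA box, was counted on either strand and at any position, and was in 12.4% of all windows. On the gene's own strand it lay at 30 bases before the start in Cebpa and 31 in Irf8. In Mef2c, which has several windows, it lay at 107 or 22 bases. Those matches were on the other strand only and are not called TATA boxes.

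Between libraries, none of the factors was 2-fold higher after crush than at steady state, while several were 2-fold lower. At day 1, Mef2c, Klf4, Runx1 and Cebpb were at least 2-fold lower, 4 of 9 genes, against 14.8% lower and 16.4% higher among all 7036 genes that reached 10 CPM in at least 1 of the libraries compared. At day 5, only Mef2c and Klf4 were, 2 of 9, against 11.1% lower and 9.85% higher of 6876 genes. From day 1 to day 5, Cebpb and Mef2c were 2-fold higher, 2 of 9, against 4.91% higher and 5.48% lower of 6655 genes. The median log2 ratio of the 9 genes was -0.84, -0.21 and 0.30 in these comparisons, against 0.11, 0.01 and -0.11 over all genes tested. The first and second comparison share the steady-state library, and the third shares a library with each. In summed counts, fewer cells that express a gene and less RNA per cell cannot be told apart. A scaling by the median of gene ratios, in place of total UMIs, moved every log2 ratio by -0.14, -0.05 and 0.09 in the 3 comparisons and changed none of these counts.

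**Figure D1:**
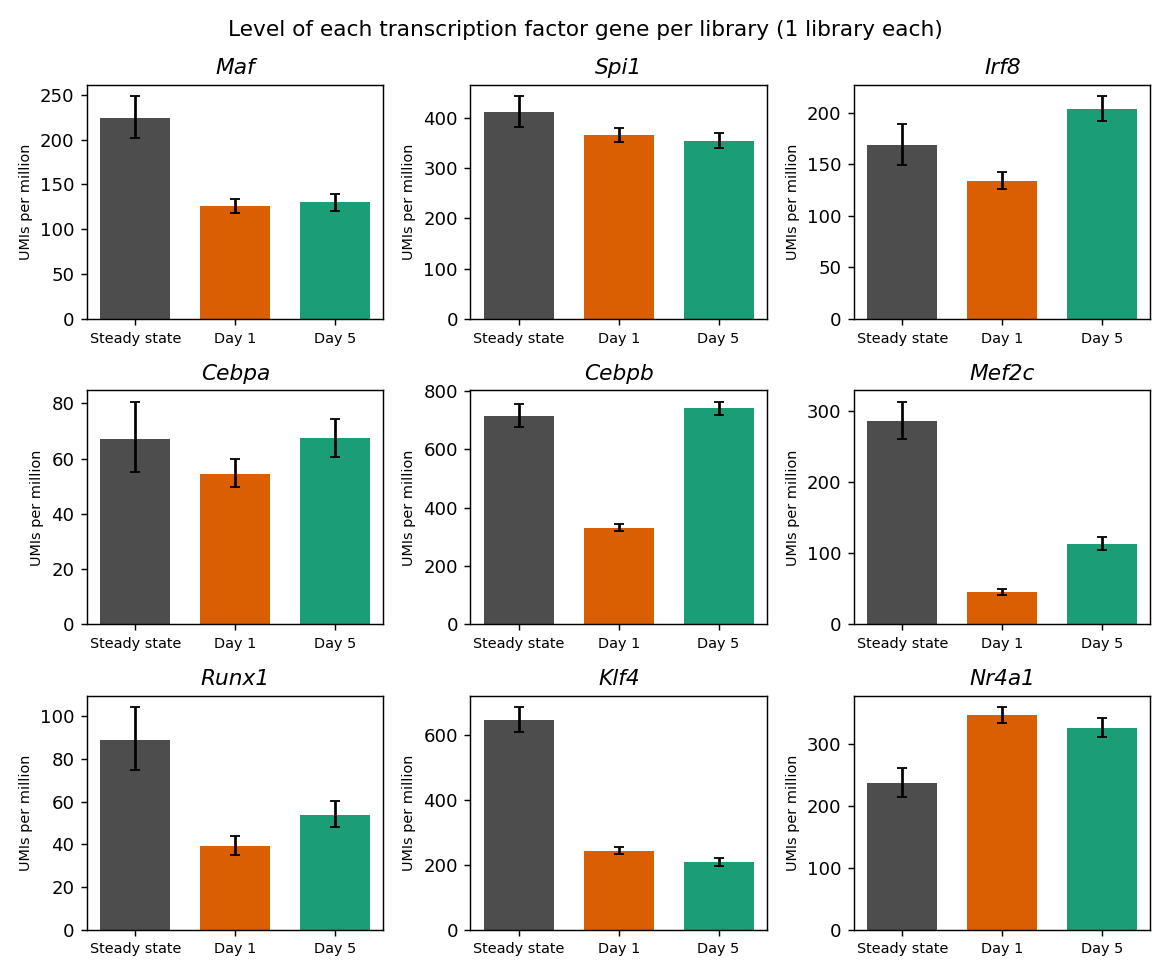
Level of each of the 9 genes in CPM (linear axis from 0, own scale per gene) at steady state, day 1 and day 5, with 1 library each; bars are the level and error bars the 95% Poisson interval of counting. Mef2c is at 287, 45.3 and 113 and Klf4 at 647, 244 and 209, while Nr4a1 is higher at both times after crush.

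Of the factors that set up the myeloid lineage, Spi1 and Cebpa differed least between libraries. Spi1 was at 411 CPM (interval 381 to 443) at steady state, 366 (353 to 379) at day 1 and 354 (339 to 370) at day 5. The 3 levels lay within 1.16-fold of each other (1.06 to 1.27 for day 5 below steady state). Cebpa was at 67.0 (55.1 to 80.7), 54.6 (49.6 to 60.01) and 67.3 CPM (60.7 to 74.5), and the interval of neither ratio to steady state excluded 1. Spi1 lies at chr2:91082390-91115756 (+ strand) and Cebpa at chr7:35119293-35121928 (+ strand), both in GRCm38 coordinates from GENCODE M21, as are all gene positions below.

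Irf8, which guides monocyte and dendritic cell fate and interferon responses, was lowest at day 1 and highest at day 5. Irf8 (chr8:120736358-120756694, + strand) was at 168 CPM (149 to 189) at steady state, 134 (126 to 143) at day 1 and 204 (192 to 216) at day 5. The day 5 level was 1.52-fold above day 1 (1.40 to 1.65) and 1.21-fold above steady state (1.06 to 1.39). Its neighbours in that order did not overlap in their counting intervals, and no difference reached 2-fold.

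Runx1, the DNA-binding partner of CBF beta in blood formation, was at 88.7 CPM (75.0 to 104) at steady state, 39.4 (35.2 to 44.0) at day 1 and 53.9 (48.0 to 60.4) at day 5. It was thus highest in uninjured nerve, with no overlap of the counting intervals. The level was 2.25-fold lower at day 1, and that interval (1.84 to 2.75) reaches below 2-fold. At day 5 it was 1.65-fold lower (1.34 to 2.01). Runx1 lies at chr16:92601466-92826149 (- strand).

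Of the factors tied to resident macrophages, Mef2c differed most among the 9 genes. Mef2c (chr13:83504034-83667080, + strand) was at 287 CPM (262 to 314) at steady state, 45.3 (40.8 to 50.3) at day 1 and 113 (105 to 123) at day 5. The day 1 level was 6.33-fold lower than steady state (5.50 to 7.27). By day 5 it was 2.50-fold above day 1 (2.19 to 2.85) and still 2.53-fold below steady state (2.24 to 2.86). The summed epineurial markers also stood lowest at day 1 and between the other libraries at day 5. So did the sum of 7 markers of endoneurial macrophages (inside the nerve), at 2881, 1452 and 1872 CPM. The part of either list in the Mef2c levels was not tested. The 4 steady-state cells with fibroblast markers held 1.68% of its UMIs there.

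Maf, which encodes c-MAF, a factor that helps hold macrophages out of the cell cycle, was at 225 CPM (202 to 249), 125 (118 to 133) and 130 (121 to 140) at steady state, day 1 and day 5. Both libraries after crush were lower, by 1.79-fold (1.58 to 2.02) and 1.73-fold (1.52 to 1.96), short of 2-fold. Day 1 and day 5 did not differ beyond counting error (ratio 1.04, 0.940 to 1.14). The gene lies at chr8:115682942-115707794 (- strand).

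The signal-responsive factors took 3 different courses. Cebpb was low at day 1 alone, Klf4 was low at both times after crush, and Nr4a1 was the one gene of the 9 that was higher at both beyond counting error. Cebpb (chr2:167688915-167690418, + strand) was at 715 CPM (675 to 757), 332 (319 to 345) and 741 (719 to 764) at steady state, day 1 and day 5. The day 1 level was 2.16-fold below steady state (2.01 to 2.31), and day 5 was 2.23-fold above day 1 (2.13 to 2.35). Averaging each cell's own CPM, which weights shallow and deep cells alike, gave log2 ratios of -0.89 and 0.86 for these comparisons, both short of 2-fold.

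Klf4 (chr4:55527143-55532466, - strand), a zinc finger factor of monocytes and of alternative macrophage activation, was at 647 CPM (608 to 686), 244 (233 to 255) and 209 (197 to 221). That is 2.65-fold lower at day 1 (2.46 to 2.86) and 3.09-fold lower at day 5 (2.84 to 3.36). The uninjured library stands alone as high. It also had the most RNA of 16 immediate-early genes, which cells switch on within minutes of a stimulus and during tissue dissociation. Their sum was 38165, 9802 and 11951 CPM, with 14 of 16 genes 2-fold lower at day 1 and 13 of 16 at day 5. Their part in the Klf4 levels was not tested.

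Nr4a1 (chr15:101254269-101274795, + strand) is itself an early-response gene, but its course was the opposite. It was at 237 CPM (214 to 262) at steady state, 347 (334 to 360) at day 1 and 326 (311 to 342) at day 5. The ratios to steady state were 1.46 (1.31 to 1.63) and 1.37 (1.23 to 1.54). Averaging each cell's own CPM raised the log2 ratios from 0.55 to 0.81 and from 0.46 to 0.66.

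The share of cells with a UMI followed the levels. To remove differences in depth, every cell with at least 1000 UMIs was thinned to exactly 1000, which kept 638, 2496 and 1777 cells and left out 90, 297 and 282. Mef2c had a UMI in 21.2% of steady-state cells (18.1 to 24.5), 4.09% at day 1 (3.34 to 4.94) and 8.67% at day 5 (7.40 to 10.1), against 31.7%, 8.34% and 17.3% without thinning. Klf4 had one in 35.9% (32.2 to 39.8), 17.5% (16.0 to 19.0) and 13.9% (12.3 to 15.6), against 47.3%, 33.4% and 27.1% unthinned. Both genes were thus found in a smaller share of cells after crush. Nr4a1 went the other way, with 14.4% (11.8 to 17.4), 26.7% (25.0 to 28.5) and 26.6% (24.5 to 28.7), against 23.8%, 47.3% and 44.4% unthinned. Cebpb was in 40.6% (36.8 to 44.5), 28.0% (26.3 to 29.9) and 43.9% (41.6 to 46.2), against 56.9%, 51.6% and 63.3% unthinned.

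The other shares differed less. Spi1 had a UMI in 29.0%, 26.3% and 24.6% of thinned cells (44.6%, 46.7% and 45.1% unthinned), Maf in 16.5%, 10.6% and 11.6% (28.7%, 22.4% and 22.5%). Irf8 was in 13.2%, 9.98% and 14.8% (20.7%, 21.4% and 29.6%). Cebpa was in 6.43%, 4.69% and 6.36% (9.89%, 11.96% and 13.6%) and Runx1 in 6.11%, 3.57% and 5.12% (12.4%, 7.41% and 9.96%). Intervals were apart from steady state for Maf, Cebpb, Mef2c, Runx1 and Klf4 (lower) and Nr4a1 (higher) at day 1. At day 5 they were apart for Maf, Mef2c and Klf4 (lower) and Nr4a1 (higher). The same comparison was not made over all genes, so how usual such numbers are cannot be said. The Runx1 intervals at day 1 nearly touch (upper bound 4.37% against a lower bound of 4.38%).

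Background from free RNA could not be set for the 9 genes. Cells with fibroblast markers numbered 4, 4 and 7, at median depths of 2111, 2067.5 and 2861 UMIs, and 3 of 4, 1 of 4 and 3 of 7 of them held a Spi1 UMI. Fibroblasts should lack Spi1 but are known to express others of the 9, such as Klf4 and Cebpb, so these few cells could serve at most for Spi1 and Irf8. Free RNA remains possible behind any single UMI.

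**Figure D2:**
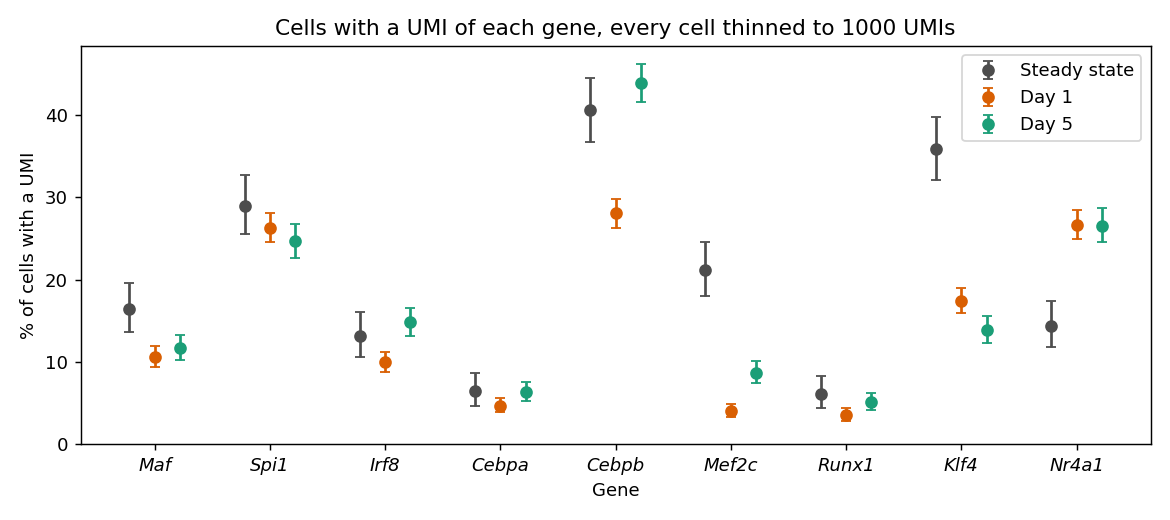
Percent of cells with at least 1 UMI of each gene at steady state, day 1 and day 5, after every cell was thinned to 1000 UMIs; points are the share in 1 library and bars its exact 95% binomial interval. The 3 libraries separate for Mef2c (21.2%, 4.09% and 8.67%), and Klf4 and Nr4a1 change in opposite directions.

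At this depth a cell usually showed 1 or 2 of the 9 factors. The mean number with a UMI per thinned cell was 1.83 (SD over cells 1.19) at steady state, 1.31 (1.02) at day 1 and 1.56 (1.14) at day 5. Cells with 0 of the 9 made up 12.5% (10.1 to 15.4), 22.6% (20.97 to 24.3) and 17.8% (16.1 to 19.7). Cells with 4 or more made up 8.46% (6.42 to 10.9), 2.96% (2.33 to 3.71) and 5.46% (4.45 to 6.62), and no cell had more than 6. Uninjured nerve thus had the most factors per cell and day 1 the fewest. Unthinned means were 2.76, 2.51 and 2.73.

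The median pair of factors was found in the same cells about as often as the separate shares predict. The expected number came from the product of both shares within deciles of UMIs per cell. Of the 36 pairs, 27, 31 and 33 had at least 10 expected cells at steady state, day 1 and day 5, and the median of observed over expected was 1.01, 1.04 and 1.07. The interval excluded 1 for 6 of these 91 ratios, and, without thinning, for 4 of 107. These are Poisson intervals of the observed number. The expected number takes both shares as fixed, so the intervals are too wide, most of all for common genes. Both counts can therefore be too low, and an interval that includes 1 does not show independence. Cebpb with Klf4 at steady state was in 115 cells against 91.7 expected (ratio 1.25, 1.04 to 1.51), and 1.11 (0.969 to 1.26) without thinning. The same pair was at 1.23 (1.03 to 1.45) at day 5, and 1.07 (0.976 to 1.18) without thinning. Cebpb with Nr4a1 was at 1.20 (1.052 to 1.355) at day 5, and 1.06 (0.981 to 1.14) without thinning. Spi1 with Cebpb at day 1 was below expectation, at 0.838 (0.709 to 0.983), but 0.966 (0.896 to 1.04) without thinning. Maf with Klf4 at day 1 had a ratio of 0.704 (0.482 to 0.994), but 0.984 (0.861 to 1.12) without thinning. Klf4 with Nr4a1 at day 1 was above expectation both ways, at 1.20 and 1.10. At day 5 that pair was at 1.13 (0.888 to 1.42), and 1.12 (1.002 to 1.25) without thinning. Cebpa with Runx1 at day 1 was at 1.41 (1.01 to 1.92) without thinning. Maf with Spi1 at steady state was at 0.788 (0.505 to 1.17), and 0.801 (0.634 to 0.998) without thinning. The known partners Spi1 and Irf8 had ratios of 1.10, 0.970 and 1.01 in unthinned cells, with intervals that include 1. Across cells of each library, the variance of the number of factors was 1.41, 1.04 and 1.29, against 1.34, 1.04 and 1.16 if the shares were independent.

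**Figure D3:**
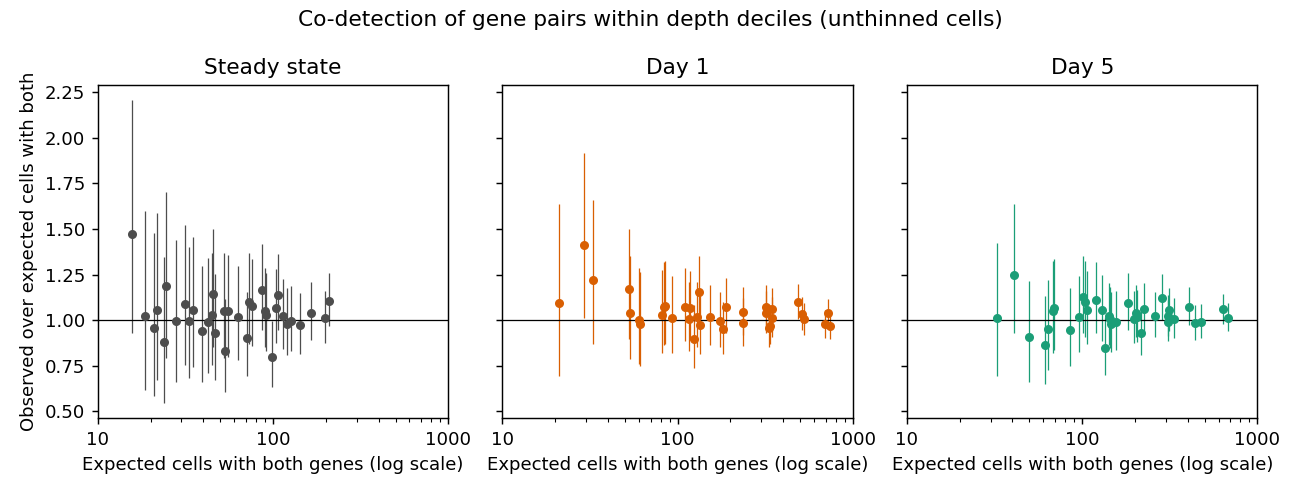
Observed over expected number of unthinned cells with a UMI of both genes (y axis) against the expected number (x axis, log scale), for pairs with at least 10 expected cells at steady state, day 1 and day 5; bars are 95% Poisson intervals of the observed number and the line marks 1. Most points lie near 1, and those farther away have few expected cells and wide bars.

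Within a library, cells with a UMI of a factor were compared with cells without one for the RNA of 4 gene programs, in thinned cells. At steady state, cells with Irf8 had fewer epineurial UMIs per 1000 (mean 7.20 against 16.3), as did cells with Mef2c (8.28 against 17.0) and Nr4a1 (8.64 against 16.2). These 3 factors were thus found in steady-state cells where the epineurial program was lower. Cebpa (10.1 against 15.5), Spi1 (13.1 against 15.9) and Klf4 (13.8 against 15.9) went the same way, by less. Maf went the other way (18.3 against 14.5), and Cebpb and Runx1 did not differ beyond counting error. For Mef2c the direction turned at day 1, where the 102 cells with it had more epineurial UMIs (1.94 against 0.836). It turned back at day 5 (2.06 against 3.60). Steady-state cells with Klf4 had more immediate-early UMIs (50.5 against 33.6). Maf and the class II antigen presentation genes went apart in every library. Class II UMIs in cells with Maf were 0.815 times those without at steady state, 0.549 times at day 1 and 0.574 times at day 5. Cells with Spi1 had more class II UMIs at day 1 (10.8 against 6.58), and the part of dendritic cells in this was not tested. At a depth of 2000 UMIs the Maf ratios for class II were 0.833, 0.518 and 0.614. The ratio for epineurial genes in day 1 cells with Maf was 2.41 at 1000 UMIs and 1.28 at 2000. For Mef2c that ratio was 2.32 and 1.60 at day 1, and 0.488 and 0.689 at steady state. The deeper setting also leaves out cells under 2000 UMIs (1713 in place of 2496 cells at day 1), so depth and the set of cells cannot be told apart.

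Clusters built without the genes of the transcription factor lists placed the same factors in different cells. There were 12 clusters, and 14 combinations of cluster and library had at least 50 cells. Marker lists named cluster 1 epineurial macrophage-like (led by Cd209f, Fcna and Retnla), cluster 4 cycling cell-like, cluster 6 dendritic cell-like (Ccr7, Ccl17) and cluster 10 monocyte-like (Chil3, Vcan, Hp). The others stayed unnamed and are called by number and leading genes. Clusters mostly of 1 library may reflect that library and not a type. Cluster names were rebuilt here, and doublets were not called.

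At steady state the epineurial macrophage-like cells (201 cells) and cluster 3 (495 cells, led by Lilra5, Hpgd and the fibroblast gene Dcn) had different factors. Nr4a1 had 276 CPM in cluster 3 and 68.7 in the epineurial-like ones, 4.02-fold apart (2.76 to 6.06). Irf8 was at 216 against 64.1 CPM, 3.37-fold (2.28 to 5.18), and Mef2c at 359 against 126 CPM, 2.85-fold (2.14 to 3.85). Runx1 was at 99.3 against 50.4 CPM, 1.97-fold (1.24 to 3.27), and Klf4 at 730 against 497 CPM. Maf alone was higher in the epineurial-like cells, at 282 against 210 CPM, 1.34-fold (1.07 to 1.67). The difference in Spi1 (427 against 362 CPM) did not exceed counting error. Immediate-early genes summed to 46956 CPM in cluster 3 and 18267 in the epineurial-like cells, and their part in these differences was not tested.

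At day 1, Mef2c was highest in cluster 9 (154 CPM, 124 cells, led by Stard6, Ch25h and Lyve1) and lowest in cluster 11 (21.8 CPM, 240 cells, led by Mmp12 and Cxcl3), 7.08-fold apart (4.12 to 12.7). In the 952 monocyte-like cells Mef2c was at 44.5 CPM. Maf ranged from 237 CPM in cluster 2 to 26.4 in the dendritic cell-like cells, 8.96-fold (3.87 to 23.2), and Cebpb from 525 in cluster 2 to 136 in cluster 9. The dendritic cell-like cells thus had little Maf, while Spi1 there was at 549 CPM. In clusters led by class II genes (cluster 8), Spi1 was highest at day 1, at 579 CPM. Leaving out the dendritic cell-like cells moved no count of 2-fold genes.

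At day 5, Maf and Cebpb were highest in opposite clusters. Maf had 445 CPM in the 65 epineurial-like cells and 59.4 in cluster 8 (468 cells, class II-led), 7.49-fold apart (5.24 to 10.6). Cebpb was at 952 CPM in cluster 8 and 329 in the epineurial-like cells, 2.89-fold (2.09 to 4.12). Nr4a1 was at 447 against 187 CPM in the same clusters. Cluster 7 (616 cells, led by Ccl8, Gdf15 and Apoe) lay between them, with Maf at 153 CPM and Cebpb at 636 CPM. So did cluster 2 (727 cells), with Maf at 199 and Cebpb at 666 CPM, both above cluster 7.

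Inside clusters with at least 50 cells at 2 times, the differences were mixed. In the epineurial-like cells, Klf4 was at 497 CPM at steady state and 133 at day 5 (ratio 0.268, 0.148 to 0.453), and Nr4a1 at 68.7 and 187 CPM (2.72, 1.48 to 4.91). Maf there was 1.58-fold higher at day 5 (1.11 to 2.21), while the whole library was lower. Irf8 was at 64.1 and 418 CPM, but 27 of its 47 UMIs at day 5 came from 1 cell, and it was at 179 CPM without that cell. In cluster 8, Cebpb was at 285 CPM at day 1 and 952 at day 5, 3.34-fold (2.57 to 4.43), while the Nr4a1 ratio was 1.00 (0.806 to 1.27). In cluster 2 (69 and 727 cells) Cebpb was at 525 and 666 CPM, a ratio of 1.27 (0.953 to 1.72). Klf4 was at 497 and 730 CPM in the steady-state clusters and at most 310 CPM in the 12 combinations after crush. Immediate-early sums at steady state were likewise above all 12, which reached at most 14484 CPM.

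**Figure D4:**
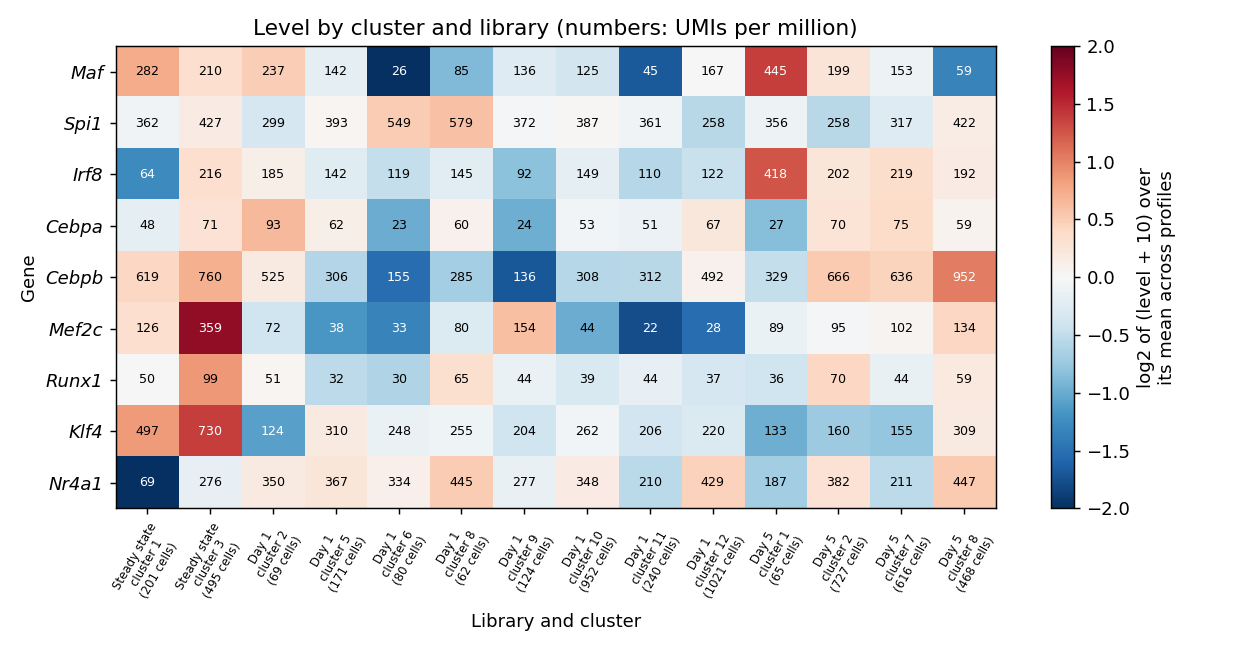
Level of each gene in CPM (printed number, whole units) in the 14 combinations of library and cluster with at least 50 cells; colour is the log2 of that level plus 10 over its mean across combinations. Klf4 is highest in both steady-state clusters, Nr4a1 lowest in the steady-state epineurial-like cells and Maf lowest in the day 1 dendritic cell-like cells.

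Genes with a like pattern over these 14 combinations were ranked by Pearson's r of log2(CPM + 10) among 3973 genes. The combinations share libraries, depth and cells of origin, and r is a description only. Maf was most like Cbr2 (0.93), Mgat1 (0.92) and F13a1 (0.90), and Mef2c most like Nfkbiz (0.93), Serinc3 (0.92) and Slco2b1 (0.90). Klf4 was like Dusp1 (0.91) and Sertad1 (0.85). Cbr2 is one of the epineurial markers, F13a1 one of the monocyte markers and Dusp1 one of the immediate-early genes. The other factors had Casp6 (0.90), Atp6ap2 (0.85) and Ube2e1 (0.83) for Spi1, Parp2 (0.88), Atp2b1 (0.86) and Echs1 (0.81) for Irf8, and Sfswap (0.88), Csnk1e (0.86) and Zeb2 (0.84) for Cebpa. Cebpb had N4bp2l1 (0.86), Mxd4 (0.81) and Daglb (0.80), Runx1 had Gpx3 (0.77), Slc25a17 (0.76) and Mbnl1 (0.76), and Nr4a1 had Cd52 (0.87), Osm (0.84) and Trib1 (0.83). Among the 9 genes themselves, Mef2c and Runx1 had r of 0.74 and Cebpa and Cebpb 0.74.

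Relatives of the factors moved with them in some families and not in others. Over all genes tested, 16.4% were 2-fold higher and 14.8% lower at day 1, and 9.85% and 11.1% at day 5, so 1 gene of a short list is near the share of all genes. Among relatives of Maf, which was lower after crush, Bach1, a repressor that pairs with small MAF proteins, was 2.56-fold (1.69 to 4.06) and 3.42-fold (2.25 to 5.44) higher at day 1 and day 5. In the MEF2 list, 1 of 3 was higher at day 1: Mef2a went from 48.9 to 104 CPM, 2.12-fold (1.68 to 2.70), where Mef2c was 6.33-fold lower.

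In the KLF list, 2 of 7 were 2-fold lower at both times and none higher. Klf2, a quiescence factor, was at 6367, 1039 and 1107 CPM, and Klf6 at 2959, 807 and 839 CPM. Klf2 was 6.13-fold lower at day 1 and 5.75-fold at day 5. These are the same direction as Klf4 and as the immediate-early list, whose median log2 ratio was -1.90 at day 1 and -1.83 at day 5. In the list of nuclear receptors, 3 of 5 tested genes were 2-fold higher and none lower at each time, and the third gene differed between the times. Nr4a2 was at 5.43 CPM (9 UMIs) at steady state, 100 at day 1 and 63.4 at day 5, 18.5-fold (9.69 to 40.6) and 11.7-fold (6.07 to 25.7) higher. Nr4a3, with 4 UMIs at steady state, was 9.26-fold (3.55 to 34.3) and 11.2-fold (4.30 to 41.8) higher, so all 3 NR4A genes were higher after crush. Nr1h3, the liver X receptor alpha gene, was the third at day 1, 15.9-fold higher (5.39 to 77.9, 3 UMIs at steady state), and at day 5 it was 4.99-fold below day 1 (3.44 to 7.46), at 5.79 CPM and below the level asked for the count.

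In the IRF list, 1 of 8 was 2-fold higher and 3 lower at day 1, and 1 higher and 2 lower at day 5. Irf1, induced by interferon gamma, was 12.4-fold lower at day 1 (10.0 to 15.5) and 3.95-fold lower at day 5, at 186, 14.9 and 47.1 CPM. Irf7, the amplifier of type I interferon, was 3.85-fold (3.14 to 4.77) and 2.79-fold (2.26 to 3.48) higher. Batf3, which is not an IRF but was placed and counted in this list, was at 146 CPM at steady state, 35.3 at day 1 and 104 at day 5. In the C/EBP list, 1 of 5 was lower at day 1 (Cebpg, 2.11-fold) and none at day 5. In the ETS list, 1 of 6 was lower at both times (Etv3, 4.47-fold and 2.66-fold). In the RUNX list, 1 of 4 was higher and 1 lower at day 1: Runx3 was 7.38-fold higher (3.34 to 20.3, 6 UMIs at steady state) and the corepressor Cbfa2t3 3.16-fold lower.

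**Figure D5:**
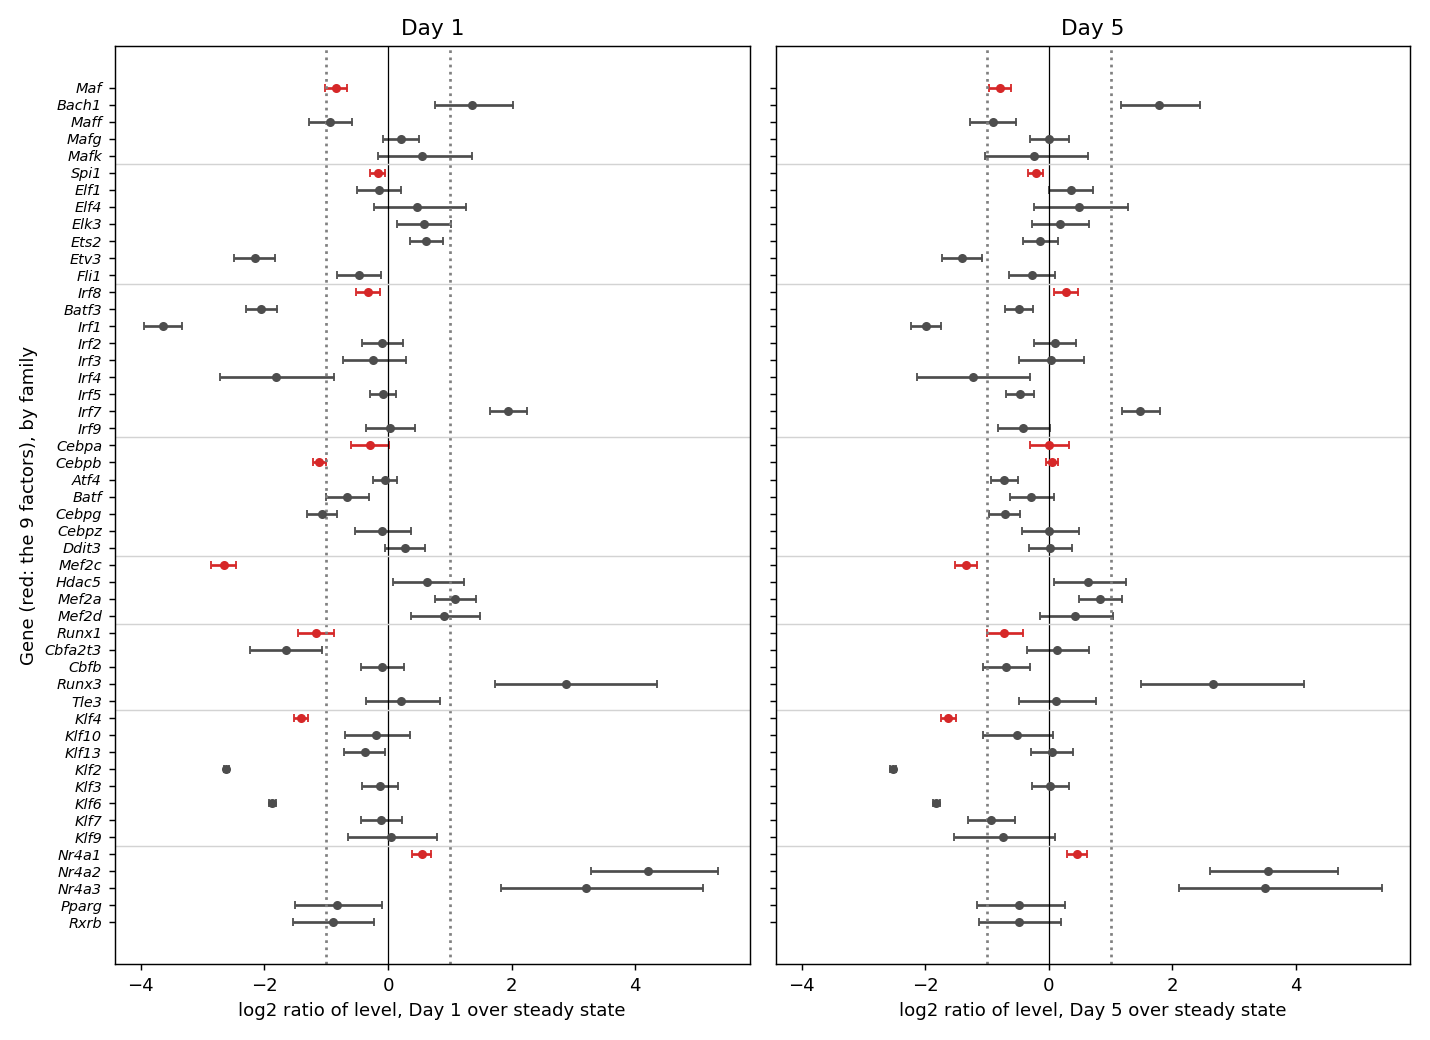
The log2 ratio of level at day 1 (left) and day 5 (right) over steady state for the 9 genes (red) and relatives reported here that reached 10 CPM in both comparisons (grey), grouped by family; points are the ratio of 1 library over another, bars 95% counting intervals, dotted lines 2-fold. Mef2c and Mef2a lie on opposite sides of 0 at both times.

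Genes of receptors and adhesion molecules that PU.1 and its partners are known to drive had 3 of 14 higher and 3 lower 2-fold at day 1, and 3 higher and 1 lower at day 5. Over all genes the shares were 16.4% and 14.8% at day 1, and 9.85% and 11.1% at day 5. Csf1r, the receptor for macrophage colony-stimulating factor and a classic PU.1 target, was at 773, 239 and 488 CPM, 3.23-fold lower at day 1, while Spi1 hardly differed. Cx3cr1, the fractalkine receptor, was at 116, 33.3 and 178 CPM. Itgam, which encodes CD11b, was 4.81-fold (3.86 to 6.05) and 2.70-fold (2.15 to 3.42) higher after crush. Monocyte markers, given above, moved with Itgam, and their part was not tested.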

How the data were processed

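Single-cell RNA was measured in 1 library per time point. The deposited tables hold raw UMI counts per gene and cell barcode, made with Cell Ranger 2.0.2 against mm10 per the submitters' processing notes. No source used here gives how barcodes were called or free RNA was handled. A deposited pooled table was not used, and the microarray and bulk data were not analysed here. Samples were grouped by their titles.

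Barcodes were removed below 200 detected genes or above 10% mitochondrial UMIs, which was 6 of 5586. Depth was 1656510 to 7963091 UMIs per library. UMIs were summed per library and scaled to CPM. Ratios have exact conditional binomial intervals, CPM exact Poisson intervals and shares exact Clopper-Pearson intervals, at 95%, for counting error only. A gene was counted as differing at 2-fold and at least 10 CPM in 1 of the libraries. No doublet caller was run, so doublets remain possible, and an alternative left out the 5% of cells with the most UMIs. Thinning drew 1000 UMIs per cell without replacement.

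Cells were clustered with scanpy 1.11.5 and python-igraph 0.11.9 (Leiden, resolution 1, 2000 variable genes, 30 principal components, 15 neighbours), leaving out 114 transcription factor and related list genes. A cluster was named by markers at least 2-fold above the other cells, with at least 3 such markers and 2 among its 10 leading genes. That rule was set with the clusters seen. The ratio and pair steps were tested on simulated data, and the intervals were not. The 9 genes and all lists were chosen with earlier results of these data known. Besides the 9 genes, the text names up to 4 genes per list and comparison past 2-fold with at least 20 CPM, and the 3 genes most like each factor among those with at least 50 CPM in 1 combination. Levels of named genes at other times are given beside them. Cebpd, Pclaf and Ighd were not matched by name and are not analysed here. A few genes that these rules select are not reported here.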

Additional observations from a re-analysis of the deposited data

How the results depend on the processing

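Across 6 settings, 152 of 162 log2 ratios of the 9 genes stayed within the counting interval, 10 moved and 0 reversed as called values; 5 changed sign, 1 of them where the interval excluded 0 (Nr4a1 from day 1 to day 5, 0.01 under median-of-ratios scaling). With each cell's own CPM averaged, 1 gene in place of 2 was higher from day 1 to day 5. With at least 50 CPM required, the related lists had 10 and 9 higher genes at day 1 and day 5 in place of 16 and 16, and 4 higher and 1 lower from day 1 to day 5 in place of 7 and 4, fewer genes being tested. Shares with intervals apart numbered 3 lower at day 1 in place of 5 without the 5% deepest cells, 3 higher at day 5 in place of 1 at 2000 UMIs, and 0 lower from day 1 to day 5 in place of 1 at 500 UMIs, at 2000 and without the deepest cells. Pairs above 1.25 and below 0.8 of expectation numbered 3 and 3 at steady state, 3 and 2 at day 1, and 0 and 1 at day 5. Unthinned, they numbered 1 and 0, 1 and 0, and none below at day 5 (0). Without the deepest cells, 1 was below at day 1, and 4 above and 3 below at day 5; with no depth deciles 2 were below at day 5. At depths added after seeing the data, 2000 UMIs gave 0 above at steady state, 0 above and 1 below at day 1, and 2 above and 3 below at day 5, and 500 UMIs gave 3 above and 3 below at day 5. The mean number of factors per cell was 1.01, 0.715 and 0.882 at 500 UMIs and 2.80, 2.14 and 2.56 at 2000. Program differences past 1.5-fold at day 1 numbered 3 at 2000 UMIs in place of 7. At clustering resolution 0.5, 5 and 1 genes were 2-fold apart between clusters at day 1 and day 5, in place of 9 and 6. This count was not made over all genes. At day 1 it set the highest of 8 clusters against the lowest, some on few UMIs (9 and 7 for Cebpa). Leaving out the dendritic cell-like cluster, an alternative chosen after seeing the data, kept every count of 2-fold genes within 1.5 times. The cause was not tested where none is given. With 1 library per time, none of these settings shows variation between animals. The shares of Cebpa and Runx1 rest on under 120 thinned cells per library.

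No paired analysis was possible because each group has 1 library.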

Other observations

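Other myeloid transcription factors outside the 8 families were mostly higher after crush among those past 2-fold. Of 14 tested at day 1, 5 were 2-fold higher and 2 lower, against 16.4% higher and 14.8% lower of all genes tested. Of 13 tested at day 5, 6 were higher and 0 lower, against 9.85% and 11.1%. Hif1a, the hypoxia-inducible factor, was at 12.7 CPM at steady state, 215 at day 1 and 80.4 at day 5, 16.9-fold (11.1 to 27.5) and 6.34-fold (4.10 to 10.3) higher. Id2, an inhibitor of E proteins, was at 45.9, 313 and 199 CPM. Bhlhe40 had 2 UMIs at steady state and was at 34.2 and 29.1 CPM after crush. From day 1 to day 5, 1 of 14 was 2-fold higher and 3 lower, against 4.91% higher and 5.48% lower of all genes tested. Tfeb, a regulator of lysosomal genes, was 2.11-fold higher (1.59 to 2.82) and Hif1a 2.67-fold lower (2.41 to 2.97). The other 2 lower genes, Id1 (12.9 to 2.17 CPM) and Tfec (18.6 to 7.06 CPM), were at lower levels than the naming rule asks and are named after their values were seen.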
